A study of Mus musculus with 4 samples.

Results

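Glucose transport and glycolysis genes were followed through 13 probe sets of 10 genes, out of 45037 probe sets tested, in mouse fibroblasts that lack SIN1 and in wild type fibroblasts. The members were the rows of the deposited table whose manufacturer ID starts with a number given for Slc2a1, Hk1, Hk2, Tpi1, Pgk1, Pgam1, Eno1, Pkm, Ldha and Slc16a3, and each number matched 1 row. Slc2a1, Hk1 and Tpi1 had 2 probe sets each, which share a transcript and are no replicates of each other. The pairing of IDs with genes came with that list, and no annotation table used here could check it.

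The groups were SIN1 KO cells, in which the SIN1 gene was ablated, and wild type cells, with 2 arrays each, 4 in all. Both are cultured fibroblasts of the C57BL/6 strain, called murine epithelial fibroblasts or MEFs in the labels, grown in DMEM without another stated treatment. SIN1 is a subunit of mTOR complex 2, the kinase complex that phosphorylates AKT, and the labels call the SIN1 KO cells altered in metabolism. Nothing in the labels tells if the replicate arrays stem from separate cultures, cell lines or animals. The p-values therefore cover no more than the array-to-array spread, part of which may be technical.

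Glycolysis turns glucose into pyruvate in the cytosol. Glucose enters through the transporter GLUT1 (Slc2a1), is trapped by hexokinases (Hk1, Hk2), and is split and oxidised in steps that include triose phosphate isomerase (Tpi1), phosphoglycerate kinase (Pgk1), phosphoglycerate mutase (Pgam1), enolase (Eno1) and pyruvate kinase (Pkm). Lactate dehydrogenase A (Ldha) reduces pyruvate to lactate, which the transporter MCT4 (Slc16a3) carries out of the cell. Cultured fibroblasts run this pathway at a high rate, and AKT is known to promote glucose uptake and hexokinase activity.

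The deposited values are log2 intensities made with RMA, which corrects background, normalizes between arrays and summarises the probes of a set. The level of 1 probe set cannot be set against that of another, so each is compared only with itself across arrays. The same-numbered arrays differed to unequal extents. Over all tested probe sets the SD of the difference was 0.63 for SIN1 KO 1 minus wild type 1 and 1.15 for SIN1 KO 2 minus wild type 2. The ablated gene, Mapkap1, and the marker genes of fibroblasts and other cell types were not analysed here, so neither genotype nor cell type was checked against its genes. In bulk RNA, fewer cells of a type and less RNA per cell cannot be told apart.

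Setting SIN1 KO against wild type addressed whether transcripts of the pathway differ when SIN1 is absent. Hk2 stood apart among the members, with both SIN1 KO arrays far below both wild type arrays, while most steps from Tpi1 to Ldha differed little or unevenly. Of the 13 member probe sets, 0 passed limma's test with Benjamini-Hochberg adjustment over all 45037 probe sets, where 0% of all probe sets were called. The members' adjusted p ranged from 0.693 (Hk2) to 0.999 (Eno1). At an unadjusted threshold of 0.05, limma called 1 member, Hk2, beside 5.57% of all probe sets in either direction and 2.57% in the lower one, on the values as deposited. Hk2 and Hk1 1437974_A_AT, 2 members, were called at that threshold under scaling to the hybridisation controls, beside 12.8% of all probe sets (0.822% lower), and without wild type 1, beside 8.6% (5.22% lower).

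Both SIN1 KO arrays lay below both wild type arrays for 2 members, Hk2 and Pgk1, beside 14.9% of all probe sets. Both lay above for 1 member, a probe set of Hk1, beside 20.4% of all. The first count is close to the share of all probe sets and the second is under it. The counts also depended on the scaling, as did the shares of all probe sets. Cyclic loess gave 5 below, with both Slc2a1 probe sets and Pgam1 added, beside 17.6% of all. Scaling the arrays to their hybridisation controls shifts every log2 difference by 0.32, and it gave 1 below, beside 4.21% of all, and 7 above, beside 51.4%. Hk2 stayed below and Hk1 1437974_A_AT above under these scalings and median centring. With 1 array left out, 1 array is set against 2 and more probe sets separate by construction. There were 6 above and 2 below without SIN1 KO 1 (43.7% and 31.4% of all). Without wild type 1 there were 7 above and 2 below (43.2% and 33.2%). Without SIN1 KO 2 there were 1 above and 6 below (29.9% and 29.4%). Without wild type 2 there were 1 above and 7 below (30.6% and 28%).

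The median log2 difference of the members was 0.0062 as deposited, with 7 higher and 6 lower on average, against a median of 0.037 and 53.9% higher over all probe sets. It was -0.093 under cyclic loess, with 6 of the 13 higher, against a median of -0.0002 and 50% higher over all probe sets. Under scaling to the hybridisation controls it was 0.33, with 9 of the 13 higher, against a median of 0.36 and 75.4% higher over all probe sets. As deposited, the median size of a difference, sign left aside, was 0.41 in the members and 0.31 over all probe sets.

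**Figure D1:**
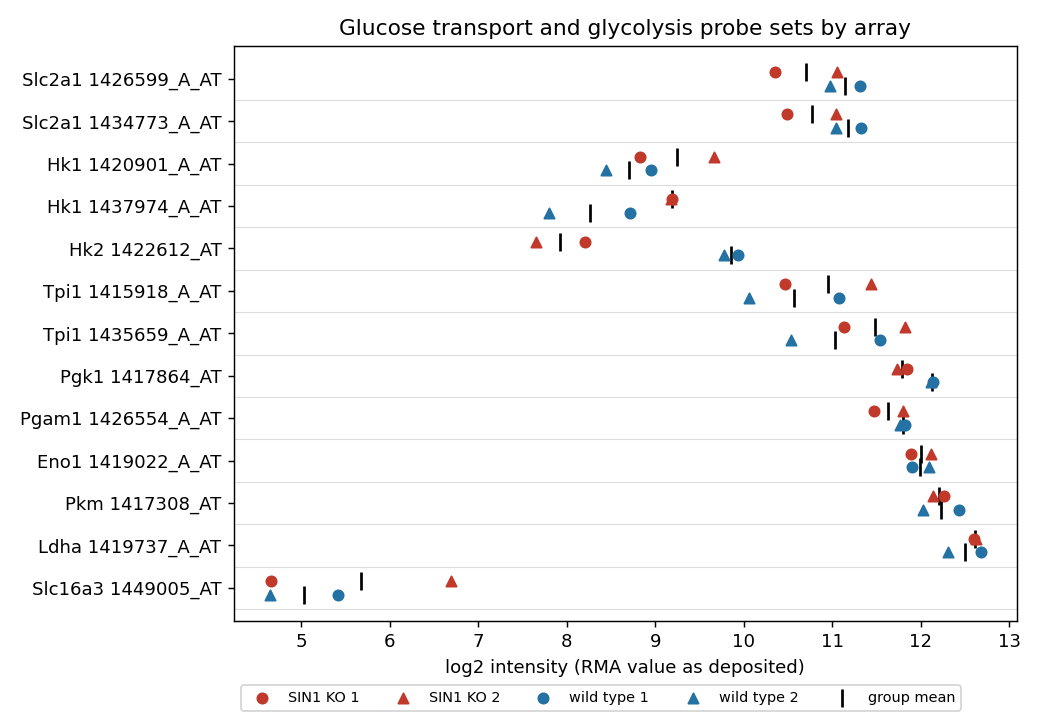
The log2 intensity (x axis) of each member probe set (rows) on each array, with SIN1 KO above wild type in each row and bars at the group means. Hk2 has both SIN1 KO arrays, at 8.21 and 7.65, left of both wild type arrays, at 9.93 and 9.78, whereas the arrays of the genotypes interleave for 10 of the 13 probe sets.

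Slc2a1 encodes GLUT1, the facilitative transporter that supplies most fibroblasts with glucose. Its probe set 1426599_A_AT read 10.35 and 11.05 in the SIN1 KO arrays, against 11.32 and 10.97 in the wild type arrays. The second one, 1434773_A_AT, read 10.49 and 11.05 in SIN1 KO, against 11.32 and 11.04 in wild type. In both, SIN1 KO 1 was the lowest array and SIN1 KO 2 lay between the wild type arrays, so the groups overlapped. The log2 differences were -0.44 (SE 0.36) and -0.41 (SE 0.32), with limma adjusted p of 0.826 and 0.823. The probe sets tracked each other, with 1 minus the other between -0.14 and 0.0062 on every array. Their mean was 10.74 ± 0.44 in SIN1 KO and 11.16 ± 0.22 in wild type (SD, n = 2 each). Without SIN1 KO 1, the difference of 1426599_A_AT was -0.093, and scaling to the hybridisation controls left -0.12 and -0.090 for the 2 probe sets.

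Hexokinases phosphorylate glucose and so keep it in the cell. Hk1 is the housekeeping form of most tissues, and Hk2 is the form that is more closely regulated, abundant in muscle, fat and many proliferating cells. Hk2 read 8.21 and 7.65 in the SIN1 KO arrays, against 9.93 and 9.78 in the wild type arrays. The gap between the nearest arrays of the genotypes was 1.57, while the arrays differed by 0.56 within SIN1 KO and 0.15 within wild type. Hk2 averaged 7.93 ± 0.40 in SIN1 KO and 9.85 ± 0.11 in wild type (SD, n = 2 each). The log2 difference was -1.93 (SE 0.31, 95% interval of the fit -2.76 to -1.09), that is, 3.80-fold higher in wild type. As the groups did not overlap, all 4 combinations of a SIN1 KO with a wild type array were below 0, from -2.28 to -1.57. All 4 were below 0 in 14.9% of all probe sets, and all 4 were above 0 in a further 20.4%.

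The Hk2 difference did not pass limma's test over all probe sets (adjusted p 0.693). Of all 45037 probe sets, 164 had a smaller unadjusted p, and 0.784% had a log2 difference as low or lower. Its combination of non-overlapping arrays with a mean at least 1 log2 unit lower was shared by 4.12% of all probe sets. All 4 arrays were well above background, by 3.37 to 5.88 log2 units over the brightest of 27 controls for Bacillus subtilis genes on the same array. The difference was -1.97 to -1.61 under the other scalings and -2.21 to -1.65 when 1 array was left out.

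Hk1 averaged higher in SIN1 KO, with separate groups in 1 probe set and overlapping ones in the other. Probe set 1437974_A_AT read 9.19 and 9.18 in SIN1 KO, against 8.72 and 7.80 in wild type, so that the SIN1 KO arrays lay above. Probe set 1420901_A_AT read 8.82 and 9.66 in SIN1 KO, against 8.96 and 8.45 in wild type, with SIN1 KO 1 between the wild type arrays. The log2 differences were 0.93 (SE 0.39, limma adjusted p 0.82) and 0.54 (SE 0.41, limma adjusted p 0.821). Neither passed that test with adjustment over all probe sets. The 2 probe sets did not track each other closely: 1420901_A_AT minus 1437974_A_AT varied over the arrays from -0.37 to 0.65. The mean of both was 9.21 ± 0.29 in SIN1 KO and 8.48 ± 0.50 in wild type (SD, n = 2 each). Without SIN1 KO 2, the difference of 1420901_A_AT was 0.12, and without wild type 1 that of 1437974_A_AT was 1.38. Scaling to the hybridisation controls gave 0.86 for the first of these.

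The Hk2 difference minus the Hk1 difference, with Hk1 as the mean of both probe sets, was -2.66 log2 units. Expressed as Hk2 minus Hk1 within an array, the SIN1 KO arrays gave -0.80 and -1.77, against 1.09 and 1.65 in wild type. These numbers carry the unknown offset between probe sets, so only their change between arrays can be read. The sign follows from those of Hk2 and Hk1 and is no further observation, and the contrast was not tested.

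The promoters of the genes whose arrays separated are shown because the pathway's regulation by hypoxia-inducible and E-box-binding factors has been traced to short motifs in such windows. Each is the run of 250 bases before a RefSeq start in build GRCm38.p6. Capitals mark the motif ACGTG, a form of the core to which hypoxia-inducible factors bind. It was searched on both strands, so that it also appears as CACGT. Other forms of the core, such as GCGTG, were not searched. Hk2 lies on the minus strand at chr6:82774455-82774704, and Pgk1 on the plus strand at chrX:106186850-106187099. RefSeq gave Hk1 a pair of starts on the minus strand, with windows at chr10:62379909-62380158 and chr10:62340422-62340671.
Hk2: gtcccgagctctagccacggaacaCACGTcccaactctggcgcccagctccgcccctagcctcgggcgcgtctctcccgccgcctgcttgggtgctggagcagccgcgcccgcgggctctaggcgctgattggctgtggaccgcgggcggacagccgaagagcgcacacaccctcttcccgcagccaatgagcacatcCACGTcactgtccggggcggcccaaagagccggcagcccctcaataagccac
Pgk1: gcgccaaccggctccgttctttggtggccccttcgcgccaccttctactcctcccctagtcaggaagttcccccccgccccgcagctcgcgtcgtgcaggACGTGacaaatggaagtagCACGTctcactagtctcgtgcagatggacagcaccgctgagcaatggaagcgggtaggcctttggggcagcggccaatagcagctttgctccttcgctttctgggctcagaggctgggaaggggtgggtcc
Hk1 upstream start: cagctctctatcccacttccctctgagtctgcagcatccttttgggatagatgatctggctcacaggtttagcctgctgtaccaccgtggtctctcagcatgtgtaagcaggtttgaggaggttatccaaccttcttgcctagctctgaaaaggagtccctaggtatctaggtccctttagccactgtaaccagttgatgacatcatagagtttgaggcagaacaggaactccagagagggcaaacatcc
Hk1 downstream start: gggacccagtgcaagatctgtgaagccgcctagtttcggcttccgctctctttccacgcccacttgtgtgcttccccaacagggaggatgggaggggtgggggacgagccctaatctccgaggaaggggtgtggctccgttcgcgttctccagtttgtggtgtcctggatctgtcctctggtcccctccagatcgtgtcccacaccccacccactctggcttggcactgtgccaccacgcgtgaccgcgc
Hk2 held 2 sites, starting 226 and 52 bases before its start, and Pgk1 held 2, starting 150 and 131 bases before its start. Neither Hk1 window held ACGTG on either strand, and the windows were not searched for other forms of the core.

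All 10 genes matched the promoter table by symbol, with 15 windows between them. ACGTG was found in 7 of the 10 genes (Slc2a1, Hk2, Pgk1, Pgam1, Pkm, Ldha and Slc16a3), against 18.5% of all genes in the table, and in 7 of the 15 windows, against 16.6% of 32851. The members' windows were also richer in G and C, with a median of 64.0% against 52.4%, and the motif holds a CpG. The longer E-box CACGTG, which contains the first motif on both strands, was found in Ldha alone among the 10 genes, with 2 sites in 1 window, against 6.9% of all genes. Of the 7 genes with ACGTG, Hk2 and Pgk1 were lower in both SIN1 KO arrays, as were 14.9% of all probe sets. The arrays of the other 5 overlapped. Among those, SIN1 KO averaged lower for Slc2a1 (-0.43), Pgam1 (-0.16) and Pkm (-0.025), and higher for Ldha (0.12) and Slc16a3 (0.64). Of the genes without ACGTG, Hk1 (0.73) and Tpi1 (0.42) averaged higher, while Eno1 (0.0062) was below the median of 0.037 over all probe sets. The signs of Pgam1, Pkm and Eno1 changed with the scaling. With 1 array left out, those of Tpi1, Ldha and Slc16a3 turned as well. Whether the motif goes with a direction was not tested. A match of letters is a description of the window and no evidence of binding.

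Tpi1 interconverts the triose phosphates made when the sugar is split. Its probe set 1415918_A_AT read 10.47 and 11.44 in SIN1 KO, against 11.07 and 10.05 in wild type. The other, 1435659_A_AT, read 11.14 and 11.82 in SIN1 KO, against 11.54 and 10.53 in wild type. Both put SIN1 KO 2 highest and wild type 2 lowest, so each genotype held an extreme and the groups overlapped. The log2 differences, 0.39 (SE 0.53) and 0.44 (SE 0.48), were smaller than the range within either genotype, with limma adjusted p of 0.881 and 0.854. Without wild type 2 they turned to -0.12 and -0.061, and scaling to the hybridisation controls gave 0.71 and 0.76.

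Pgk1 makes the first ATP of the pathway's payoff phase. It read 11.84 and 11.73 in SIN1 KO, against 12.14 and 12.12 in wild type, and the groups did not overlap. The mean was 11.79 ± 0.08 in SIN1 KO and 12.13 ± 0.02 in wild type (SD, n = 2 each). The log2 difference of -0.34 (SE 0.25, 95% interval -1.001 to 0.31) had a limma adjusted p of 0.82. It kept its sign when any 1 array was left out (-0.40 to -0.29), but scaling to the hybridisation controls reduced it to -0.023, and the groups then overlapped. Under that scaling the median difference of all probe sets was 0.36, against 0.037 as deposited.

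The next 3 enzymes showed the smallest differences of the pathway, together with Ldha. Pgam1, which moves the phosphate group of phosphoglycerate, read 11.47 and 11.80 in SIN1 KO, against 11.82 and 11.77 in wild type. Eno1, which forms phosphoenolpyruvate, read 11.89 and 12.12 in SIN1 KO, against 11.90 and 12.09 in wild type. Pkm, which transfers that phosphate to ADP, read 12.26 and 12.14 in SIN1 KO, against 12.43 and 12.03 in wild type. In all 3 the genotypes overlapped, and within Eno1 the 2 arrays numbered 2 were both above the 2 numbered 1. The log2 differences were -0.16 (SE 0.27) for Pgam1, 0.0062 (SE 0.26) for Eno1 and -0.025 (SE 0.28) for Pkm, with limma adjusted p of 0.905, 0.999 and 0.993. The 95% intervals of the fit bounded them at -0.88 to 0.56 for Pgam1, -0.70 to 0.71 for Eno1 and -0.78 to 0.73 for Pkm. Changes of up to those sizes were thus not excluded by 4 arrays. The signs were not stable: Pgam1 stood at 0.16 and Pkm at 0.29 under scaling to the hybridisation controls, and Eno1 at -0.093 under cyclic loess.

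Ldha, the muscle-type subunit of lactate dehydrogenase, read 12.61 and 12.63 in SIN1 KO, against 12.68 and 12.31 in wild type. Wild type arrays lay on either side of both SIN1 KO arrays. The log2 difference was 0.12 (SE 0.27, 95% interval -0.61 to 0.85, limma adjusted p 0.932), and it was -0.064 without wild type 2. It was 0.013 under cyclic loess and 0.44 under scaling to the hybridisation controls. Under the latter, both SIN1 KO arrays lay above both wild type arrays for Ldha, as for 51.4% of all probe sets. The median difference of all probe sets was then 0.36. Slc16a3, the lactate exporter MCT4, read 4.65 and 6.69 in SIN1 KO, against 5.42 and 4.64 in wild type. SIN1 KO 2 alone was high, and SIN1 KO 1 was within 0.01 of the lowest array. The log2 difference of 0.64 (SE 0.77, limma adjusted p 0.867) turned to -0.38 without SIN1 KO 2, and scaling to the hybridisation controls gave 0.96. This was the dimmest member, 0.73 to 2.42 log2 units above the highest Bacillus subtilis control of its array.

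**Figure D2:**
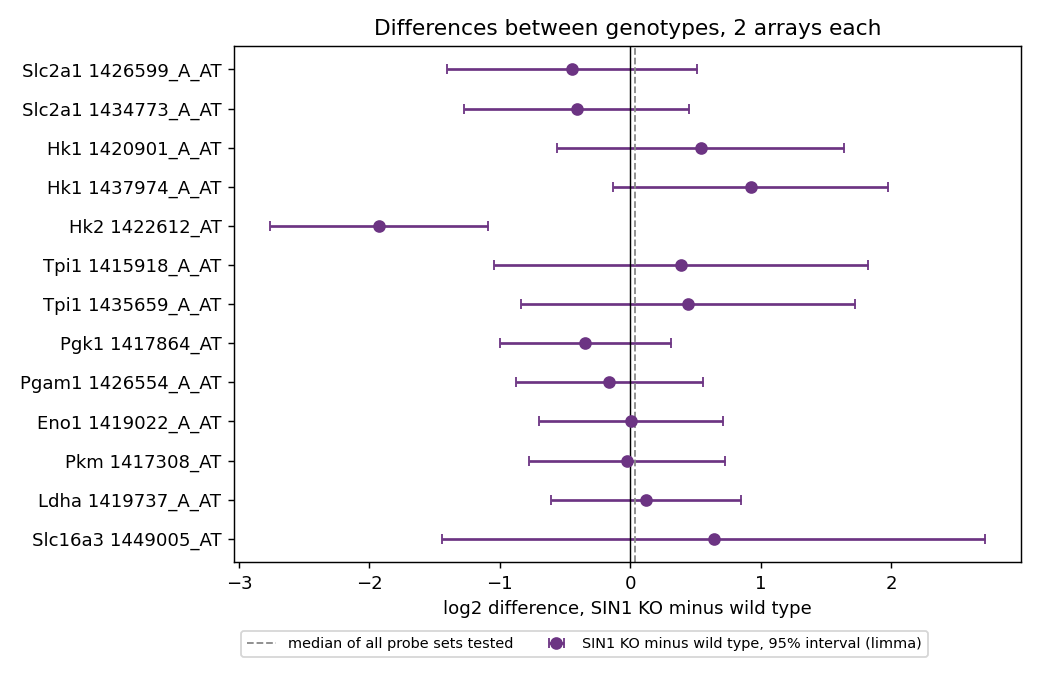
The log2 difference of SIN1 KO minus wild type (x axis) for each member probe set (rows), with the 95% interval of the limma fit on 2 arrays per genotype and the median of all tested probe sets as a dashed line. The interval of Hk2, -2.76 to -1.09, is the only 1 of the 13 that leaves out 0; intervals are not adjusted for the number of probe sets.

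The direction of most member probe sets depended on which arrays were set against each other. In SIN1 KO 1 minus wild type 1, 12 of the 13 member probe sets were lower, by a median of 0.35 on the log2 scale, beside 51.4% of all probe sets lower in that pair. In SIN1 KO 2 minus wild type 2, 11 of the 13 were higher, with a median difference of 0.11, beside 57.3% of all probe sets higher. Hk2 and Pgk1 were the 2 members lower in both pairs, at -1.72 and -2.13 for Hk2 and -0.30 and -0.39 for Pgk1. Hk1 probe set 1437974_A_AT was the 1 member higher in both, at 0.48 and 1.38. Hk2, Pgk1 and this Hk1 probe set are the members whose groups did not overlap. That held for 14.9% (below) and 20.4% (above) of all probe sets, so it is no further observation. Tpi1 and Slc16a3 turned furthest: 1415918_A_AT gave -0.61 in the first pair and 1.38 in the second, and Slc16a3 gave -0.77 and 2.05. No label states that the numbers in the titles pair the arrays. The crossed combinations were split nearly evenly. SIN1 KO 1 minus wild type 2 had 7 members higher and 6 lower, with a median of 0.0094, against 0.028 over all probe sets. SIN1 KO 2 minus wild type 1 had 6 higher and 7 lower, with a median of -0.024, against 0.053 over all.

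**Figure D3:**
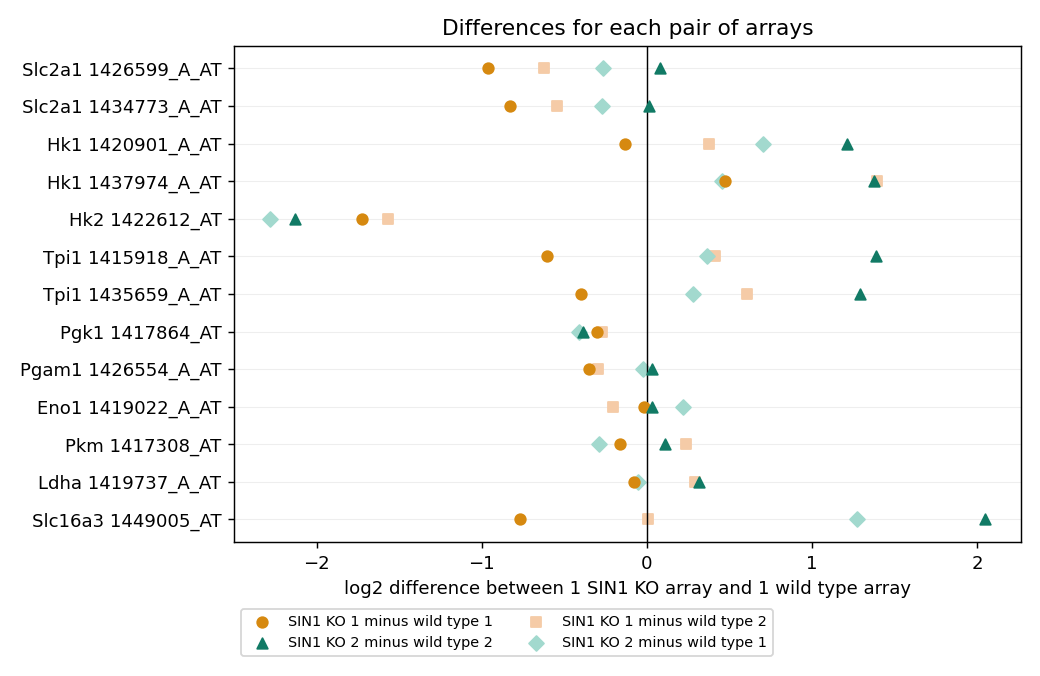
The log2 difference (x axis) between each SIN1 KO array and each wild type array for every member probe set (rows). All 4 combinations lie left of 0 for Hk2 and Pgk1 (14.9% of all probe sets) and right of 0 for Hk1 1437974_A_AT (20.4% of all). Tpi1 and Slc16a3 have points on both sides.

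The arrays of a genotype also differed in the members. SIN1 KO 2 was above SIN1 KO 1 for 9 of the 13, by a median of 0.33, beside 55.9% of all probe sets. Wild type 2 was below wild type 1 for 12 of the 13, with a median of -0.37, beside 54.9% of all. Over all probe sets the medians of these differences were 0.086 and -0.067. The median range within a genotype was 0.38 for the members and 0.39 over all probe sets. The Gapdh control probe sets at the 3' and 5' ends of the transcript, whose difference is often used as a sign of RNA integrity, differed by 1.09 in SIN1 KO 1 and 0.64 in SIN1 KO 2, against 0.69 and 0.72 in wild type. SIN1 KO 1 had the largest 3' excess. It was the lowest array for 3 of the 10 genes (Slc2a1, Pgam1 and Eno1), beside 5 for wild type 2, 2 for SIN1 KO 2 and 0 for wild type 1. The part of RNA integrity in these values was not tested.

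Of the other genes of glucose use that had been listed, Gapdh and pyruvate carboxylase could be read, from array controls whose IDs carry their names. Gapdh catalyses the step between Tpi1 and Pgk1. The 3' probe set read 13.33 and 13.35 in SIN1 KO, against 13.41 and 13.28 in wild type, and the middle one read 12.79 and 13.05 in SIN1 KO, against 13.13 and 12.84 in wild type. The 5' one read 12.25 and 12.71 in SIN1 KO, against 12.72 and 12.56 in wild type. The genotypes overlapped in all 3. Pyruvate carboxylase, which feeds pyruvate into oxaloacetate, had SIN1 KO 2 highest in all 4 of its probe sets and SIN1 KO 1 lowest. These controls were not part of the fit, and the other listed genes were not analysed here.

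**Figure D4:**
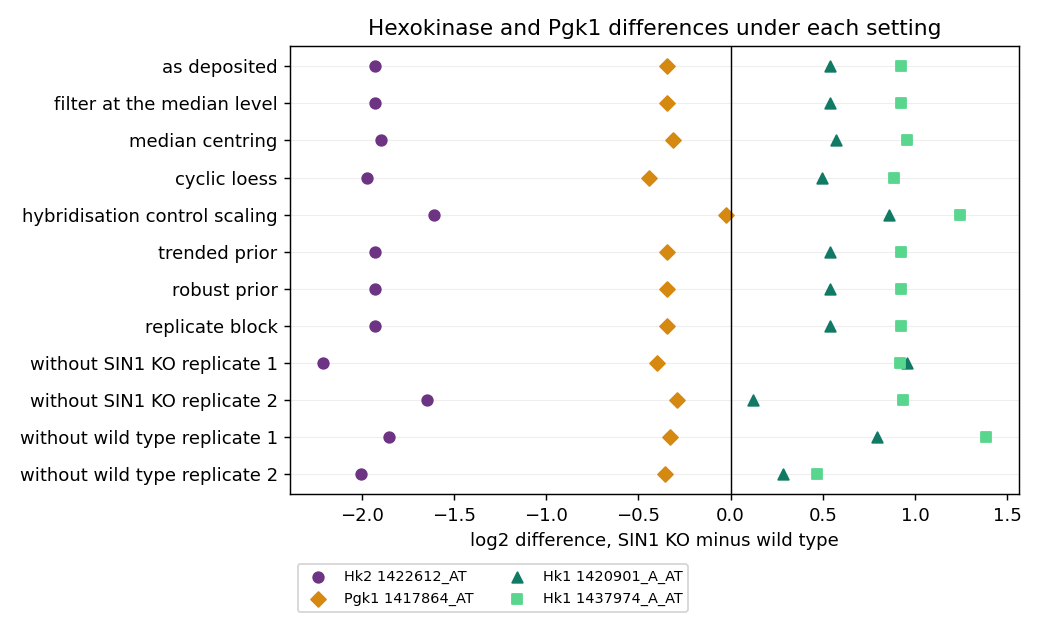
The log2 difference of SIN1 KO minus wild type (x axis) for the Hk2, Pgk1 and Hk1 probe sets under the values as deposited and each alternative setting (rows). Hk2 stays between -2.21 and -1.61, Pgk1 reaches -0.023 under scaling to the hybridisation controls, and Hk1 1420901_A_AT reaches 0.12 without SIN1 KO replicate 2.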

How the data were processed

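The authors deposited 1 table of log2 values for 4 arrays, 2 of SIN1 KO and 2 of wild type cells, made with RMA, per the submitters' processing notes. Its version, settings and probe set definition are not stated there. The log2 scale was taken from the range of the values. Groups and replicate numbers came from the sample titles, and 0 columns were left unused. The 64 control probe sets were left out of the tests (27 Bacillus subtilis, 18 hybridisation and 19 mouse controls).

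Genotypes were compared on 45037 probe sets by limma (version 3.58.1, run in R 4.3.3) with lmFit and eBayes without trend (2 residual and 2.38 prior degrees of freedom), with Benjamini-Hochberg adjustment over all of them at 0.05. The fit was run on simulated data with noise drawn independently for each array. That checks the calculation alone and does not measure how the test performs on these 4 arrays. All 13 members were named whatever their values. The members and lists were chosen with earlier results of these data known. The gene names come from the list of members; the tables used here name no probe sets, so other listed genes and cell markers were not analysed. The number of arrays limits precision: the median SE of a log2 difference was 0.32 for members. The deviations of same-numbered arrays from their group means correlated at -0.415 across probe sets, so they were not treated as pairs. Alternatives were other scalings, a filter, other variance priors, blocks and left-out arrays. Promoters are from RefSeq tables of GRCm38.p6. Figures used matplotlib 3.10.9 in Python 3.11.15.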

Additional observations from a re-analysis of the deposited data

How the results depend on the processing

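With Benjamini-Hochberg adjustment over all probe sets, limma called 0 members under every alternative run. Over all probe sets it called 0 in both directions, apart from 5 higher in SIN1 KO under the filter at the median level (22519 probe sets tested), 0 of them members. At an unadjusted threshold of 0.05 the fit to the values as deposited gave 1350 higher and 1159 lower, but 5381 and 370 under scaling to the hybridisation controls. Left-out arrays gave 516 to 1522 higher and 429 to 2351 lower. The replicate number as a block gave 0 calls, with an adjusted p of 1 for Hk2 on fewer residual degrees of freedom. The crossed pairing as a block, chosen after seeing the data, also gave 0. The adjusted p of Hk2 ranged from 0.383 to 1 over its 11 alternatives. Members with both SIN1 KO arrays below both wild type arrays numbered 2 (14.9% of all probe sets), but 5 under cyclic loess (17.6%) and 1 under scaling to the hybridisation controls (4.21%). Those above numbered 1 (20.4%), but 7 under scaling to the hybridisation controls (51.4%). With 1 array left out, the members below numbered 2 (beside 31.4% and 33.2%), 6 (29.4%) or 7 (28%). Those above then numbered 1 (beside 29.9% and 30.6%), 6 (43.7%) or 7 (43.2%). Leaving out an array loosens this rule by construction and was also chosen after seeing the data. With 1 array left out, the lone array of a genotype was taken to vary like the other genotype's pair. The members' median difference was -0.12 to 0.18 with 1 array left out, -0.093 under cyclic loess and 0.33 under scaling to the hybridisation controls. Signs turned for Pkm (0.0066 under median centring, 0.29 under hybridisation control scaling), Pgam1 (0.16 under hybridisation control scaling) and Eno1 (-0.093 under cyclic loess). With 1 array left out, the range was -0.33 to 0.0035 for Pgam1, -0.11 to 0.12 for Eno1, -0.23 to 0.175 for Pkm, -0.064 to 0.30 for Ldha, -0.38 to 1.66 for Slc16a3, and -0.12 to 0.90 and -0.061 to 0.95 for Tpi1. The cause was not tested. Of 91 values of single members under other scalings and left-out arrays, 14 turned sign and 77 did not; the filter, the priors and the block leave the differences as they are. Signal close to background limits Slc16a3.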
